A study of Mus musculus with 2 samples.

Results

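Solute carriers are membrane proteins that move amino acids, sugars, ions, metals, nucleotides and vitamins across the plasma membrane or the membranes of organelles, and each family is named Slc with a family number. The members described here are the genes whose platform symbol begins with Slc and a digit. They were read by 61 array probes with a single gene symbol, and after averaging the probes of a gene they numbered 55 of 4331 measured genes, from 28 families. One further probe carried an Slc symbol together with that of another gene and was not used.

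Total RNA of CD4+ alpha beta T cells from the spleens of wildtype mice and of LatY136F mice was hybridised together on each of 2 arrays, with the dyes exchanged between the arrays. In LatY136F a phenylalanine replaces a tyrosine of Lat, the adaptor that links the T cell receptor to downstream signalling. The cells were enriched with magnetic beads against CD4 and then sorted. The strain, age and sex of the mice, the number of animals behind each RNA and whether both arrays used the same RNA extracts are not stated in the labels, so the pair counts as 1 biological comparison without a test, and the difference between the arrays may be technical only.

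The values used are 1 log ratio per probe and array, without signal levels, so a ratio says nothing of how strongly a gene was expressed. Values are log2 ratios of LatY136F over wildtype with the sign of array 2 turned and each array centred on its median. That direction is likely, not stated by the sources; if it is wrong, every "higher" becomes "lower". For a gene, ± gives 0.5 times the difference between the 2 arrays. The word called is used of genes that passed 2-fold in the same direction on both arrays, a log2 ratio of at least 1 or at most -1. Fewer cells of a type and less RNA per cell cannot be told apart in such bulk RNA.

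Activated T cells are known to take up more glucose, glutamine, leucine and iron than resting ones. Slc2a1 (GLUT1) imports glucose, Slc1a5 neutral amino acids such as glutamine, and Slc3a2 (CD98) is the heavy chain that carries amino acid exchangers of the Slc7 family to the cell surface. Slc16 proteins move lactate and other monocarboxylates, and Slc25 proteins are mostly carriers of the inner mitochondrial membrane. Metals are handled by separate families, with Slc39 proteins importing zinc into the cytosol, Slc30 proteins removing it, Slc11 proteins moving iron and manganese, and Slc40a1 (ferroportin) exporting iron from cells.

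Among the 55 genes, a trio of metal transporters was called higher, Slc3a2 and a few other amino acid carriers had positive but smaller ratios, and the majority had ratios near 0. Of the 55 genes, 3 were called higher (5.45%), against 4.2% of all genes. None was called lower, against 0.97% of all genes. At 1.5-fold on both arrays 6 members were higher and 1 was lower, which compares with 7.83% and 2.93% of all genes. The share of members called higher was therefore close to that of all genes. A mean log2 ratio within 0.5 of 0 was found for 45 members (81.8%), against 79.1% of all genes. The median of the members was 0.02 and that of all genes 0.0004. The same sign on both arrays was seen for 33 members (60.0%), against 55.8% of all genes, and 22 of the 33 were above 0 and 11 below. The 22 include Slc7a11 and Slc17a2, deposited as exactly 0 on both arrays and above 0 only through centring.

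**Figure D1:**
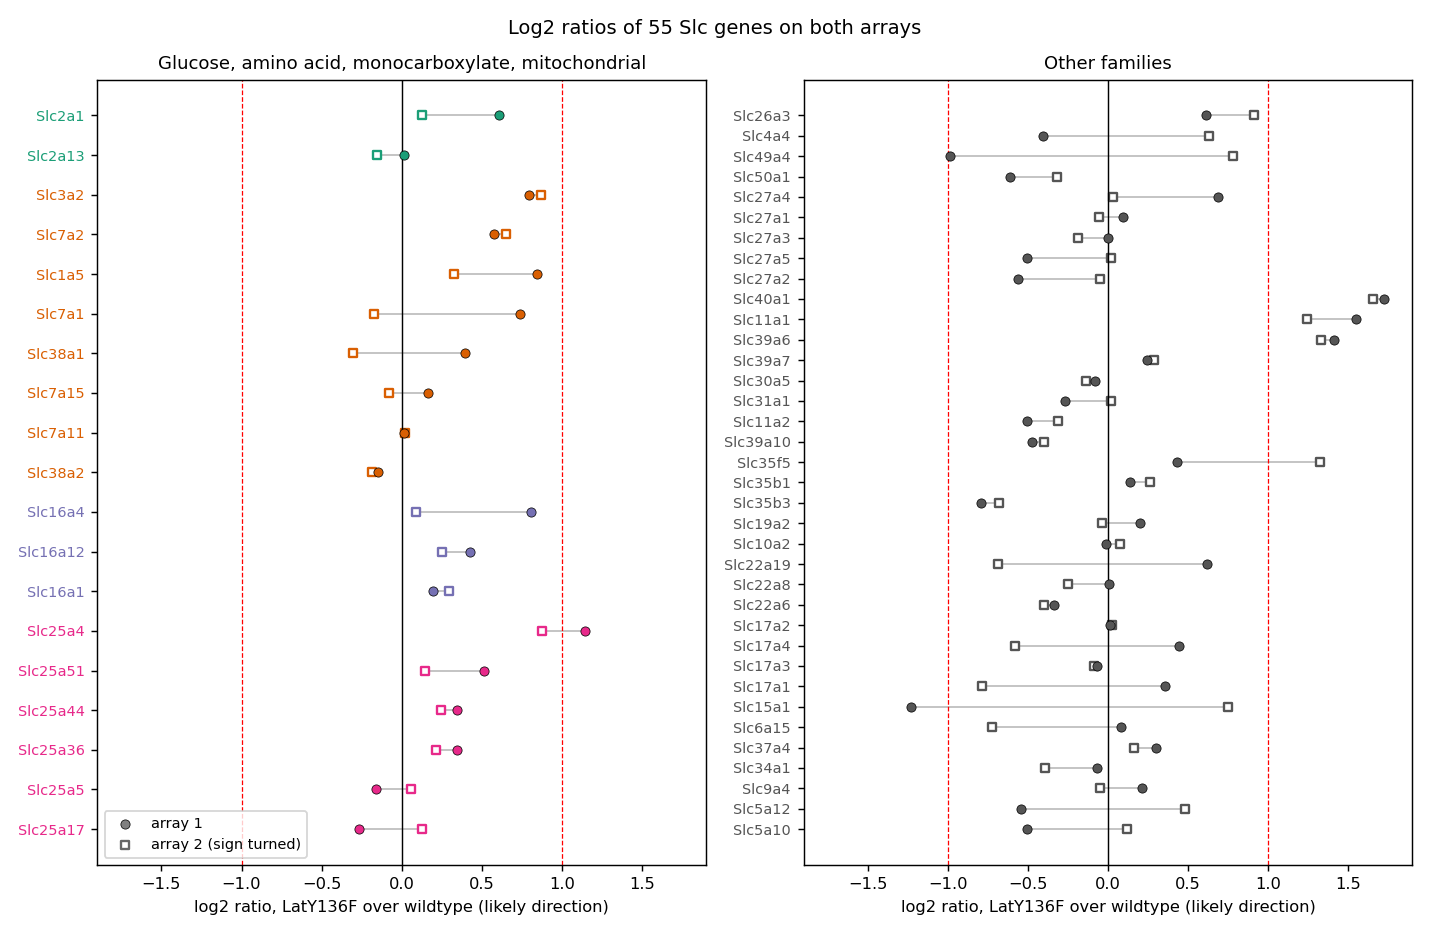
Log2 ratio of LatY136F over wildtype (horizontal axis, likely direction) for each of the 55 Slc genes, with array 1 as filled circles, array 2 as open squares and the 2 arrays of a gene joined by a line; red dashed lines mark 2-fold. Slc40a1, Slc11a1 and Slc39a6 lie beyond the 2-fold line on both arrays, while Slc15a1 and Slc49a4 lie far apart on opposite sides of 0.

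The 7 genes that passed 1.5-fold in one direction on both arrays were Slc40a1, Slc11a1, Slc39a6, Slc25a4, Slc3a2 and Slc26a3 on the higher side and Slc35b3 on the lower. Of the 7 genes, 5 matched the RefSeq promoter table (GRCm38.p6); Slc40a1 and Slc39a6 did not match. The 250 bases before the start are given for Slc11a1, a called member, Slc25a4, which missed the call on 1 array, and Slc3a2, the highest amino acid carrier. Slc11a1 is from chr1:74374953-74375202 on the plus strand, Slc25a4 from chr8:46211063-46211312 on the minus strand and Slc3a2 from chr19:8713898-8714147 on the minus strand. Capitals mark matches to TGANNNNGC, a loose form of the antioxidant response element core with any bases between TGA and GC.
Slc11a1: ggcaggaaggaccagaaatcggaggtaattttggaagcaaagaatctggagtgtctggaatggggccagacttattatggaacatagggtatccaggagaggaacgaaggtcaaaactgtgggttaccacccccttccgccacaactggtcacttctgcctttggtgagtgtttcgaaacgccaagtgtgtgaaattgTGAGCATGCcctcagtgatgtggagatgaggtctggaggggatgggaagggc
Slc25a4: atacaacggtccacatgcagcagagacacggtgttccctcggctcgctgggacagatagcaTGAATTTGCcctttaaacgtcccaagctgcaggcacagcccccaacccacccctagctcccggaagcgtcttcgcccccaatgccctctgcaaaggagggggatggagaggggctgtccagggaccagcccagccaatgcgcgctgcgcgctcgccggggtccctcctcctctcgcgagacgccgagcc
Slc3a2: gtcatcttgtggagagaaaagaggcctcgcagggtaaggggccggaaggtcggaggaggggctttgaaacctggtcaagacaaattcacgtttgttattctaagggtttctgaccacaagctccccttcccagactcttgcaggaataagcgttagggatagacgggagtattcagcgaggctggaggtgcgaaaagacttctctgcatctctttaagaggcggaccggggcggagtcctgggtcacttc

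Both strands were searched for 6 motifs in these windows. TGANNNNGC was found in 3 of the 5 genes (6 windows), Slc11a1, Slc25a4 and Slc26a3, and in 23 of the 42 Slc genes with a window. Counted by window, it is present in 35.2% of all 32851 windows and in 44.4% of the 54 windows of those 42 genes. The E-box CACGTG, bound by Myc and Max, the amino acid response motif TGATGNAA, the GATA motif AGATAA, the ETS motif GAGGAAGT and the AP-1 motif TGANTCA were in none of the 5. Their shares of all windows were 6.02%, 3.45%, 9.99%, 2.44% and 6.75%, and of the Slc windows 11.1%, 7.41%, 3.7%, 3.7% and 5.56%. A match describes these letters only and is not a binding site.

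The metal transporters held all 3 called members. Slc40a1 (gene ID 53945), the iron exporter, stood at 1.72 on array 1 and 1.66 on array 2, a mean of 1.69 ± 0.03 or 3.22-fold higher. It had the highest ratio of the solute carriers and ranked 77th of 4331 genes from the top. Slc11a1 (gene ID 18173), which pumps iron and manganese out of the phagosome of macrophages, gave 1.55 and 1.24, a mean of 1.40 ± 0.16 (2.63-fold higher). Slc39a6 (gene ID 106957), a zinc importer, gave 1.41 and 1.33, a mean of 1.37 ± 0.04 (2.58-fold higher). Its 2 probes were alike in direction, at 1.25 and 1.11 for the first and 1.57 and 1.55 for the second, so both probes passed 2-fold on both arrays. All 3 genes were high on both arrays, with differences between the arrays smaller than the ratios themselves.

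The other 5 metal transporters were not called, and 4 of the 5 had a mean below 0. Slc39a10, a zinc importer of the plasma membrane, had the lowest mean of the group, at -0.48 on array 1 and -0.40 on array 2. Slc11a2 (DMT1), which imports iron, was at -0.50 and -0.31. The zinc transporter Slc39a7, of the endoplasmic reticulum and Golgi, stood at 0.24 and 0.29. Slc30a5 and the copper importer Slc31a1 had means of -0.11 and -0.13. Within the Slc39 family, Slc39a6 and Slc39a10 thus lay on opposite sides of 0 on both arrays, and within the Slc11 family so did Slc11a1 and Slc11a2. The metal group had a median of 0.08 over 8 genes, with 7 of 8 keeping their sign across the arrays.

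Slc11a1 and Slc40a1 are known to be expressed by macrophages, so the markers of that cell type are given beside them. Of 17 measured monocyte and macrophage markers, 8 were called higher and none lower, against 4.2% and 0.97% of all genes. Their median was 1.18, with a range of means from -0.45 to 2.73. The mannose receptor Mrc1 was 6.63-fold higher, the complement gene C1qc 5.57-fold and Adgre1, a surface receptor of macrophages, 2.80-fold. Going the other way, 3 markers had a mean below 0: Msr1 (-0.45), Marco (-0.34) and Ctss (-0.13). Their part in the ratios of Slc11a1 and Slc40a1 was not tested. The array ratios show no level, so it cannot be seen whether any marker was at or near 0. Leaving out Slc11a1 and Slc40a1 left 1 member, Slc39a6, called higher, which follows by count and is no check on macrophage RNA.

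**Figure D2:**
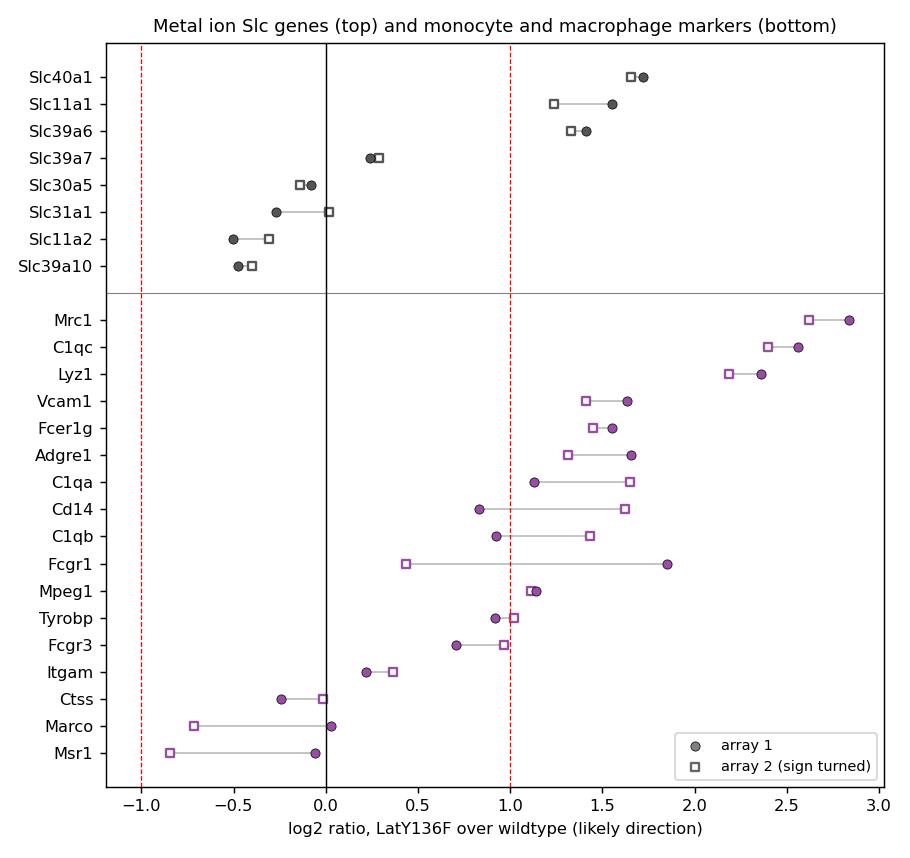
Log2 ratio of LatY136F over wildtype (horizontal axis) for the 8 metal transporters (grey, top) and 17 monocyte and macrophage markers (purple, bottom), array 1 as filled and array 2 as open symbols, with 2-fold marked by red dashed lines. Slc40a1, Slc11a1 and Slc39a6 lie among the upper markers, and the other 5 transporters lie between -0.50 and 0.29.

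Other marker lists differed as well, beside shares over all genes of 4.2% called higher and 0.97% called lower. Erythroid markers, of which 5 were measured, had a median of 0.84 with 2 called higher, and the 7 neutrophil markers a median of 1.34 with 3 called higher. No measured marker of either list had a mean below 0. Epor of the erythroid list was 5.35-fold higher, and Il1r2 and Lcn2 of the neutrophil list were 12.29-fold and 8.83-fold higher. Platelet markers (3 measured) had a median of 1.20 with 2 called higher, and eosinophil, basophil and mast cell markers (5 measured) a median of 0.75 with none called. B cell markers lay the other way, with 8 of 14 called lower and a median of -1.27, and so did the CD8 T cell markers, with 1 of 2 called lower and a median of -1.43. The T cell list held none called among 11, with a median of -0.08 and Cd4 at -0.17. Erythroid precursors express iron importers. Whether erythroid, neutrophil or B cell RNA contributed to any transporter ratio, those of Slc11a1 and Slc40a1 included, was not tested.

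Among the genes that work beside the transporters, from a list of partners, iron genes and ion pumps, 1 of 18 was called higher and 1 lower, with a median of 0.07. Over all genes 4.2% were called higher and 0.97% lower. Atp1b2, a beta subunit of the sodium pump, stood at 1.08 and 1.03 (2.08-fold higher), and Atp1b3, another beta subunit, at -1.23 and -1.08 (2.23-fold lower). Both sodium pump subunits passed 2-fold on both arrays, in opposite directions. Tfr2, a transferrin receptor known from liver and erythroid cells, was at 0.90 and 2.24, and so was above 1 on array 2 only. Tfrc, the transferrin receptor of dividing cells, was at 0.13 ± 0.03. The ferritin chains Ftl1 and Fth1 stood at 0.52 ± 0.09 and 0.33 ± 0.02. The iron exporter therefore lay further from 0 than Tfrc and both ferritin chains on both arrays. Tfr2 lay further from 0 than the exporter on array 2 and nearer on array 1. The metallothionein Mt1, which binds zinc, was at -0.03 ± 0.08.

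Amino acid carriers of the Slc1, Slc3, Slc7 and Slc38 families had positive ratios more often than not, without a called member. The Slc6, Slc15 and Slc17 genes were grouped apart, with 1 mean above 0 and 5 below. Of 8 genes of the Slc1, Slc3, Slc7 and Slc38 families, 7 had a mean above 0, against 2168 of all 4331 genes. The median of the 8 was 0.16. One of the 7, the cystine importer Slc7a11, was deposited as exactly 0 and is above 0 only through centring. The median was 0.28 with probes at exactly 0 left out and 0.32 with the strongest probe of each gene. The median was 0.48 on array 1 and -0.03 on array 2, so the shift of the group lay on 1 array. Slc3a2 had the highest mean, at 0.80 and 0.87 (mean 0.83 ± 0.04, 1.78-fold higher). Slc1a5 gave 0.84 and 0.32 (0.58 ± 0.26). Slc7a2, a carrier of cationic amino acids, gave 0.57 and 0.65. These 3 genes were above 0 on both arrays and none reached 2-fold on either.

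The rest of the amino acid group split between the arrays. Slc7a1, another cationic amino acid carrier, gave 0.74 on array 1 and -0.17 on array 2, with 1.05 and -0.34 at one probe and 0.43 and -0.004 at the other. The 3 probes of Slc38a1, a glutamine transporter, disagreed, with 1.04 and -1.29 at the first, 0.10 and -0.15 at the second and 0.05 and 0.51 at the third, so its mean of 0.04 ± 0.35 describes no shared direction. Slc38a2, a transporter of the same family, was at -0.15 and -0.19. The probes of Slc7a15 averaged 0.21 and -0.12. Like Slc7a11, Slc17a2 is listed at exactly 0 on both arrays before centring, and such a 0 may be a missing estimate.

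**Figure D3:**
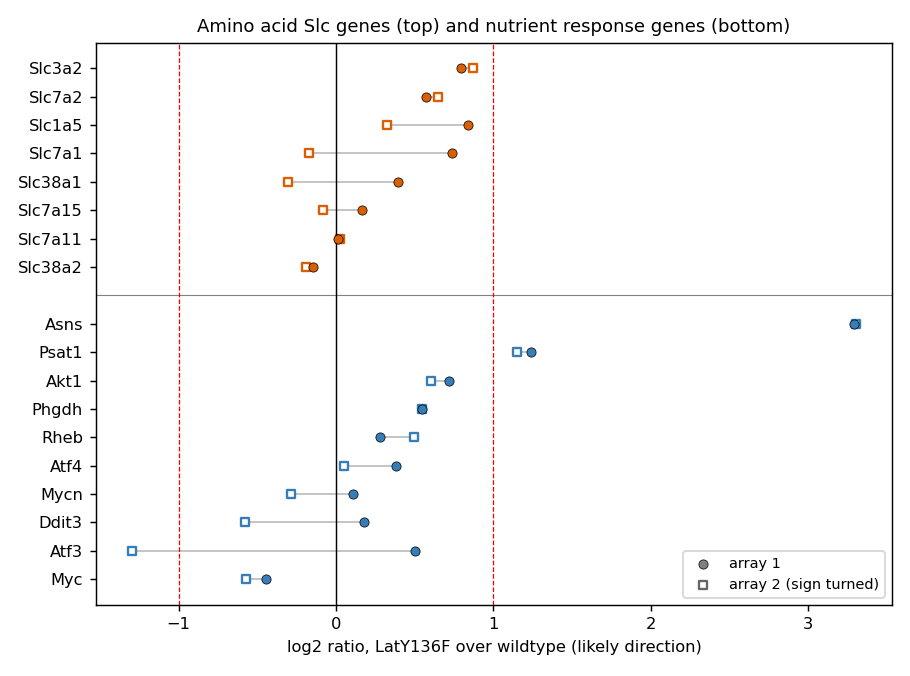
Log2 ratio of LatY136F over wildtype (horizontal axis) for the 8 amino acid carriers (orange, top) and the 10 measured genes of nutrient sensing and the amino acid response (blue, bottom), array 1 filled and array 2 open, with 2-fold marked by red dashed lines. Asns lies at 3.29 and 3.31, far beyond every carrier, and Slc7a1 and Slc38a1 cross 0 between the arrays.

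Genes of nutrient sensing and the amino acid response were read beside these carriers, because Atf4 and Myc are known to act on several of them. Of 10 measured, 2 were called higher and none lower, with a median of 0.30, against 4.2% and 0.97% called of all genes. Asns, asparagine synthetase, stood at 3.29 and 3.31 (9.84-fold higher) and Psat1, an enzyme of serine synthesis, at 1.24 and 1.15 (2.29-fold higher). Phgdh, the first enzyme of that pathway, had 0.55 on both arrays. The kinase gene Akt1 gave 0.72 and 0.61. Atf4 itself stood at 0.22 ± 0.16, Ddit3 at -0.20 ± 0.38 and Myc at -0.51 ± 0.07, none of them called. Atf3 gave 0.50 on array 1 and -1.30 on array 2, and Mycn had a mean of -0.09. Of the 10 means, 6 were above 0 and 4 below. The synthesis enzymes Asns and Psat1 were thus further from 0 than any amino acid carrier, on both arrays. Macrophage, neutrophil and B cell markers differed beside these genes as beside the metal transporters, and their part in these ratios was not tested.

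Of the glucose carriers, Slc2a1 gave 0.61 on array 1 and 0.13 on array 2 (0.37 ± 0.24), and Slc2a13, a carrier of myo-inositol, 0.01 and -0.15. Neither was called, and the glucose median of 0.15 rests on 2 genes. The 3 monocarboxylate carriers were all above 0 on both arrays, with a median of 0.34. Slc16a1 (MCT1), which moves lactate and pyruvate, gave 0.20 and 0.30, and Slc16a4 gave 0.80 and 0.09. Slc16a12 had a mean of 0.34 and was not called either. Beside them, the lactate dehydrogenase chain Ldha, favoured in lactate production, gave 1.13 and 0.61, and Ldhb gave -0.94 and -1.19. The 2 dehydrogenase genes lay on opposite sides of 0 on both arrays, and neither passed 2-fold on both. Bsg (basigin), the chaperone of Slc16a1, was at 0.29 ± 0.29.

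Mitochondrial carriers had a median of 0.29 over 6 genes (0.35 on array 1 alone and 0.18 on array 2 alone), with 4 above 0 on both arrays. Slc25a4, an exchanger of ADP and ATP expressed mostly in muscle and heart, stood at 1.15 and 0.88 (1.01 ± 0.13, 2.02-fold higher) and missed the 2-fold limit on array 2. Slc25a5, the ADP/ATP exchanger of most dividing cells, stood at -0.16 and 0.06. The 2 exchangers thus differed, with Slc25a4 above Slc25a5 on both arrays. Slc25a17, a carrier of the peroxisome, had the lowest mean, at -0.07 ± 0.20. The remaining 3, Slc25a51, Slc25a44 and Slc25a36, ranged from 0.28 to 0.33 in their means.

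Outside these groups, the largest differences without a call belonged to genes of the Slc35 family and to an anion exchanger. Many, not all, Slc35 members are known to carry nucleotide sugars and related compounds. Slc35b3, which brings the sulphate donor PAPS into the Golgi, was the lowest member of all, at -0.79 and -0.68 (1.67-fold lower), and the only one at least 1.5-fold lower on both arrays. Slc35f5 gave 0.43 and 1.32, and so was above 1 on array 2 only. Slc26a3, a chloride and bicarbonate exchanger of the intestine, gave 0.61 and 0.91 (1.69-fold higher). Slc4a4, the sodium bicarbonate cotransporter, gave -0.41 and 0.63. Slc50a1, a sugar carrier of the Golgi, was at -0.61 and -0.32.

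The fatty acid transport family Slc27, with 5 genes, had a median of -0.10 and no called member. Its highest, Slc27a4, gave 0.69 and 0.03, and its 2 probes averaged 0.20 and 0.52; its lowest, Slc27a2, gave -0.56 and -0.05. Slc37a4, which carries glucose 6-phosphate into the endoplasmic reticulum, stood at 0.23 ± 0.07, and the phosphate importer Slc34a1 at -0.23 ± 0.16. The thiamine carrier Slc19a2 (0.08 ± 0.12) and the organic anion carrier Slc22a6 (-0.37 ± 0.03) were the ends of the organic ion and vitamin group. The exchanger Slc9a4 was at 0.08 ± 0.13, and the sodium-coupled carriers Slc5a12 and Slc5a10 were at -0.03 ± 0.51 and -0.20 ± 0.31.

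Other members gave opposite signs on the 2 arrays. Slc15a1, a peptide importer of the gut, gave -1.23 and 0.75, and Slc49a4 -0.99 and 0.78. Slc22a19 gave 0.62 and -0.69. These were the 3 members at least 1.5-fold apart in opposite directions, against 5.93% of all genes. No member was at least 2-fold apart in opposite directions, against 1.73% of all genes. Slc6a15, a neutral amino acid importer, gave 0.08 and -0.72, the lowest mean of the amino acid, neurotransmitter and peptide group (6 genes, median -0.15). The other families together (36 genes) had a median of -0.07, with 15 means above 0 and 21 below. Their median was 0.0034 on array 1 and -0.0093 on array 2. On both arrays 10 of these genes were above 0 and 10 below, so they had no shared direction. The members without a value above (Slc10a2, Slc17a1, Slc17a3, Slc17a4, Slc22a8, Slc27a1, Slc27a3, Slc27a5 and Slc35b1) had means from -0.25 to 0.20, none of them called.

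**Figure D4:**
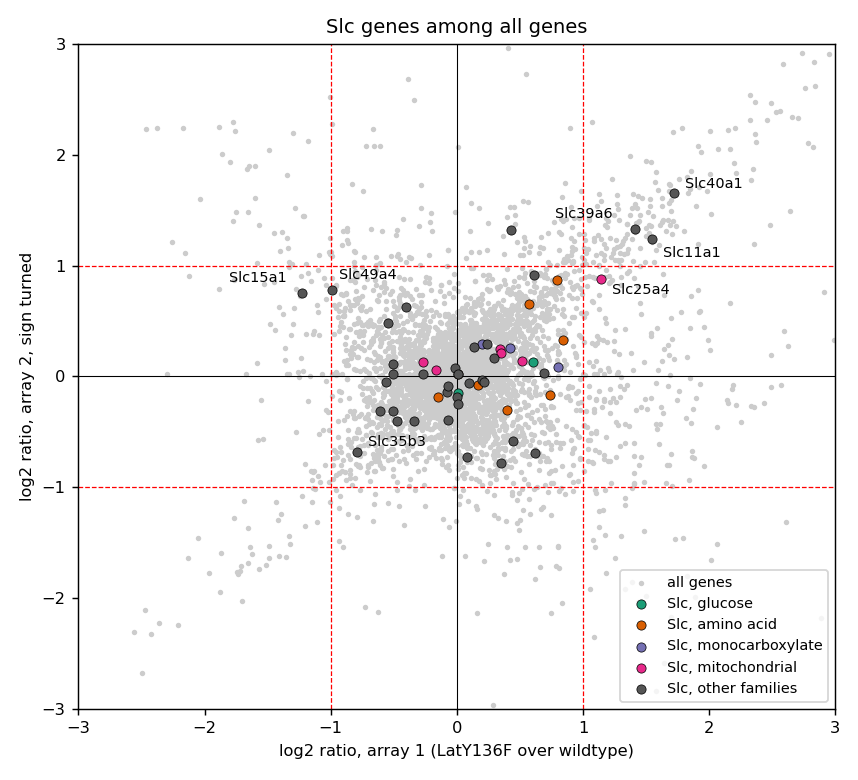
Log2 ratio on array 1 (horizontal axis) against array 2 with its sign turned (vertical axis) for all 4331 genes (light grey) and the 55 Slc genes (coloured by class), with 2-fold marked by red dashed lines; 31 genes beyond 3 on either axis are not shown. Slc40a1, Slc39a6 and Slc11a1 lie beyond the 2-fold lines at the upper right, inside the range of all genes, and most other members lie in the cloud around 0.

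The standard deviation of the mean log2 ratios was 0.48 in the Slc genes and 0.58 in all genes. Means ran from -0.74 to 1.69 in the Slc genes and from -3.26 to 5.54 in all genes. The value given as ± above had a median of 0.13 in the Slc genes and 0.15 in all genes. The median absolute mean log2 ratio was 0.24 and 0.21. Across the 55 genes, which share both arrays and are no replicates of each other, Pearson's r between the arrays was 0.43 and Spearman's rho 0.35. Over all genes these were 0.33 and 0.16.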

How the data were processed

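The deposited table holds 8014 probes with 1 value per array, read as log10 ratios of both channels. Base, direction, background correction and normalization are not stated in the labels. One value of array 1 is exactly 2 and none is above it, a likely 100-fold limit, so log10 is probable, not certain. Deposited columns had a Pearson r of -0.21 over all probes. Values were multiplied by 3.32 (log2), array 2 by -1, since the labels give it the opposite polarity, and each array's median (-0.0033 and 0.0070 as deposited) was subtracted. Probes with 1 symbol (4654; 73 had several, 3287 none) were averaged per gene. All 55 Slc genes had their identifier in the RefSeq gene table. Scanner signals were not analysed here, so precision is limited by the number of arrays.

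Members, classes and lists were chosen with earlier results of these data known; the class of Slc49 and Slc50 was added after the table was seen. The naming rule took members at least 1.5-fold apart in one direction on both arrays or at least 2-fold apart in opposite directions, the ends of each class, members with several probes, Slc3a2, Slc2a1, Slc7a5, Slc1a5, Slc16a1 and Slc16a3 where measured, and list genes past 1.5-fold in one direction on both arrays. Every other gene named was chosen after its values were seen. Marker lists are given by counts and examples. The arrays are 1 biological comparison, so no result rests on a test of the conditions; limma with the arrays taken as replicates was run as an alternative only. The calling rule was tested on simulated data. Other alternatives were another centring, scaling, probe rule, threshold, log base, sign and each array alone. Python 3.11.15, pandas 2.3.3, R 4.3.3 and limma 3.58.1 were used.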

Additional observations from a re-analysis of the deposited data

How the results depend on the processing

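Counts of 3 higher and 0 lower Slc genes were found again without centring, with arrays scaled, with the strongest probe per gene and with probes at exactly 0 left out. A 2-fold limit on the mean gave 4 and 0, and so did probes in place of genes. Single arrays gave 4 higher and 0 to 1 lower. At 1.5-fold the counts were 6 and 1, and at 3-fold 1 and 0, as such limits must move them. Read as log2, 0 were higher and 0 lower. With the arrays treated as replicates, limma gave 0 higher and 0 lower Slc genes after adjustment over all genes, and an unadjusted p under 0.05 for 8 of the 55 (14.5%), against 616 of all genes (14.2%). Leaving out Slc11a1 and Slc40a1, chosen after seeing the data, left 1 higher gene and put the median of the other families at -0.087. Turning the sign gave 0 higher and 3 lower, with Slc40a1 at -1.69, Slc11a1 at -1.40 and Slc39a6 at -1.37. The turned medians were -0.15 (glucose), -0.34 (monocarboxylate), -0.29 (mitochondrial), 0.074 (other families), -0.30 (nutrient sensing) and -0.073 (partners and pumps). Read as log2, the medians were 0.10 (monocarboxylate), 0.086 (mitochondrial), -0.022 (other families) and 0.091 (nutrient sensing). On single arrays medians ranged from -0.0093 to 0.0034 (other families), 0.031 to 0.14 (all Slc genes), 0.27 to 0.44 (nutrient sensing) and 0.044 to 0.15 (partners and pumps). Those of glucose (-0.012 to 0.31) and amino acid carriers (-0.029 to 0.48) lay on both sides of 0, and those of mitochondrial carriers were 0.18 to 0.35. The amino acid median was 0.28 with probes at exactly 0 left out and 0.32 with the strongest probe. Without centring the other families were at -0.092. Of 33 named Slc genes, 9 had another sign on array 2 alone than in the mean and 3 on array 1 alone. Each ratio already sets LatY136F against wildtype on the same array, and there is no further biological comparison to set beside the pair. Precision is limited by the 2 arrays and the unknown signal.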
